A study of Schizosaccharomyces pombe with 6 samples.

Results

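The genes described here encode the factors that carry ribosomes through translation in the fission yeast Schizosaccharomyces pombe. They were taken by their descriptions: a protein-coding gene was included when its description names translation initiation, elongation, release or termination, and left out when it names mitochondria or tRNA. The rule used no measured value and found 48 of the 7268 gene models, among 5145 protein-coding genes. RNA-seq was done on the wild-type strain 972-, grown in the rich medium YES, in 3 conditions with 2 libraries each: cells given 100 nM rapamycin for 5 h, cells given 100 nM rapalink-1 for 5 h, and untreated cells. Rapamycin inhibits the growth-promoting kinase complex TORC1 allosterically, bound to an FKBP12 protein, and rapalink-1 is rapamycin joined through a linker to an inhibitor of the ATP site of TOR. The design asks how the 2 drugs compare with no drug and with each other at 1 dose and 1 time. The flasks were split from 2 mother cultures, so the p-values measure the spread between these few cultures.

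The libraries held 19959695 and 26321118 reads on gene models (rapamycin), 16674483 and 16527483 reads (rapalink-1) and 19678440 and 17782822 reads (untreated). The translation factor genes took 5.64% and 5.62% of these reads in rapamycin-treated cells, 4.80% and 4.88% in rapalink-1-treated cells, and 5.87% and 5.77% in untreated cells. Ribosomal RNA genes took 0.117% to 0.243% of the reads of a library. Replicates differed by more than sampling noise in every condition, with chi-square values per degree of freedom of 9.50, 7.78 and 5.31 (rapamycin, rapalink-1, untreated). The 2 libraries of a condition were kept separate and used as replicates to estimate the spread.

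In eukaryotes, eIF2 brings the initiator tRNA to the small ribosomal subunit, eIF3 holds the initiation complex together, the eIF4 factors bind the mRNA cap and unwind the leader, and eIF1, eIF1A, eIF5 and eIF5B act in finding the start codon and joining the large subunit. The elongation factors eEF1A and eEF2 then deliver aminoacyl-tRNA and move the ribosome along the mRNA, and the release factors eRF1 and eRF3 end the chain at a stop codon. TORC1 signalling is known to promote both the making of this machinery and its activity when nutrients are plentiful.

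Transcripts of the translation factors were abundant. Levels are given as FPKM, fragments per kilobase of gene model scaled to library size, so that genes of different length can be set side by side. The median level over the 46 measurable genes was 399 FPKM, against 45.7 FPKM over the 4329 protein-coding genes with a mean of at least 1 FPKM. Of the 46 genes, 31 were among the 500 most abundant protein-coding transcripts and 4 among the top 100. In untreated cells the eEF1A gene tef101 had the highest FPKM (4878). The lowest FPKM were those of gcn1, the large activator of the eIF2 alpha kinase Gcn2 (31.6), and the eIF1A-like gene tif1102 (31.2). Subunits of 1 complex did not share 1 FPKM: the 10 eIF3 subunit genes ran from 158 FPKM (hcr1) to 571 FPKM (SPAC25G10.08) in untreated cells. This range depends on overlap with other gene models, which cover 29.8% of hcr1 and 58.2% of the eIF3 gene sum1. If reads in shared stretches were not counted, their untreated means over unshared bases would be 225 and 1079 FPKM. The plot of FPKM by role group shows the levels in all 3 conditions. Libraries of 1 condition lay close together, with a median coefficient of variation over the 46 genes of 2.04% (rapamycin), 2.25% (rapalink-1) and 1.62% (untreated). The widest was tif1102 in rapalink-1-treated cells (14.9%).

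**Figure D1:**
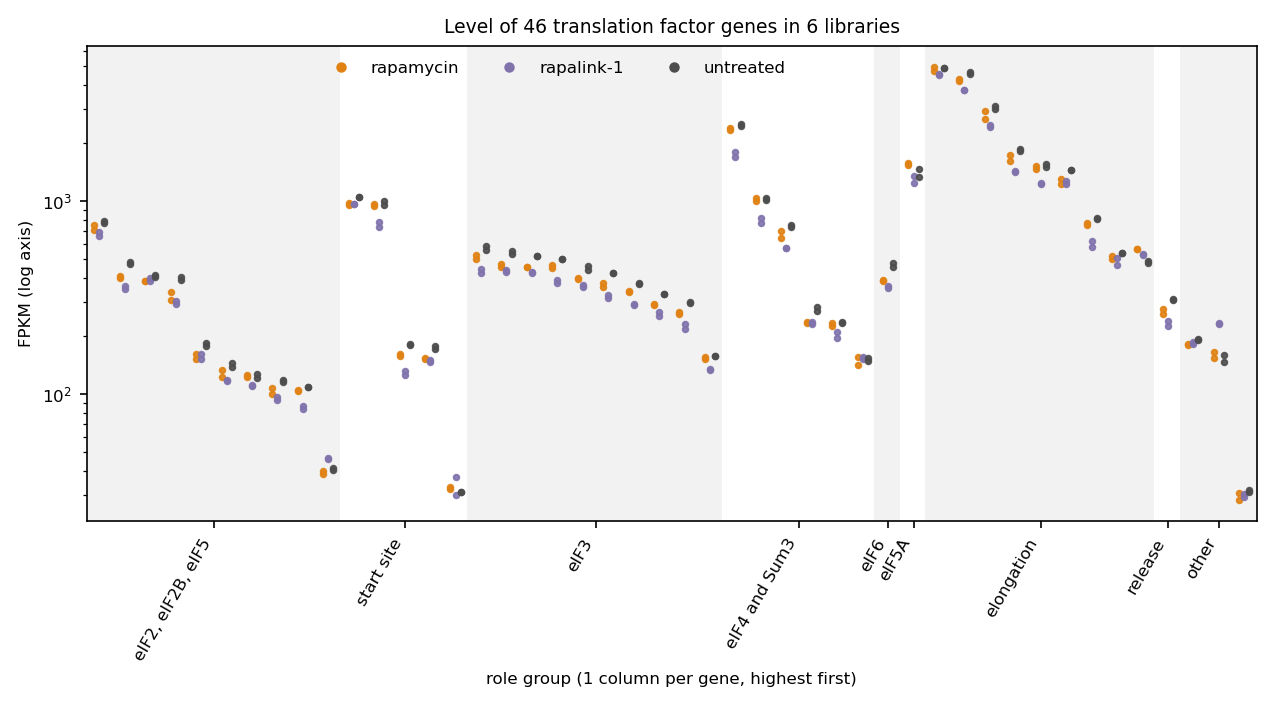
FPKM on a log axis of the 46 measurable translation factor genes, 1 column per gene, grouped by role and ordered by the untreated mean. Each point is 1 library (rapamycin, rapalink-1, untreated, 2 points each). Elongation factor genes reach 4878 FPKM in untreated cells, and tif1102 and gcn1 lie near 31 FPKM.

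Most translation factor genes were lower after rapalink-1, and fewer were lower after rapamycin. Of 46 genes tested, 36 fell and 3 rose in rapalink-1-treated against untreated cells. In rapamycin-treated against untreated cells 17 fell and 1 rose. Between the drugs, 24 genes were lower and 2 higher in rapalink-1-treated than in rapamycin-treated cells. A gene was called where the p-value of limma, adjusted by Benjamini-Hochberg over 4847 genes of all classes, did not exceed 0.05. Over all genes tested, the share called lower was 22.5% (rapalink-1 against untreated), 7.28% (rapamycin against untreated) and 17.4% (rapalink-1 against rapamycin), and the share called higher was 24.8%, 10.4% and 19.7% in the same order. The changes were modest in size. The median log2 fold change of the 46 genes against untreated cells was -0.29 for rapalink-1 and -0.12 for rapamycin. For rapalink-1 against rapamycin it was -0.14. The median of all tested genes was -0.01, 0.00 and -0.00 in that order. The scaling of the libraries holds this all-gene median near 0, so a change shared by all genes would not show. With quantile normalisation, 38.8% of the genes called in rapalink-1-treated against untreated cells were higher, in place of 52.4%, and 41.6% in place of 53.1% against rapamycin.

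Set against the untreated mean of each gene, the median gene stood at 94.3% and 90.3% in the rapamycin libraries and at 81.8% and 81.4% in the rapalink-1 libraries. A fall of at least 1.2-fold that also passed the test was seen in 25 genes after rapalink-1 (all genes: 11.3%), in 1 gene, tif211, after rapamycin (all genes: 1.67%) and in 7 genes for rapalink-1 against rapamycin (all genes: 9.20%). A rise of that size passed the test for psi1 alone, after rapalink-1 against untreated cells (all genes: 16.9%) and against rapamycin (all genes: 12.2%). Both rapalink-1 libraries lay below both untreated libraries in 40 of 46 genes (all genes: 38.6%). Both rapamycin libraries lay below both untreated libraries in 36 of 46 (all genes: 32.8%), and both rapalink-1 libraries below both rapamycin libraries in 34 of 46 (all genes: 35.4%). The reverse order, with no overlap, held for 3 genes after rapamycin (all genes: 31.1%), for 3 after rapalink-1 (all genes: 36.6%) and for 2 between the drugs (all genes: 34.6%). The comparisons with untreated cells share the same untreated libraries.

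The rapalink-1 calls were more stable than the rapamycin calls. Of 36 genes called lower after rapalink-1, 28 kept the call under each of 17 other ways of processing or leaving out a library, while 1 of 17 genes called lower after rapamycin did, the eIF2 gamma gene tif213. The count of genes lower after rapamycin dropped to 3 without a filter on low values, to 5 without an intensity trend, and to 3, 7 and 3 when untreated library 1, untreated library 2 or rapamycin library 2 was left out. Of the 3 genes higher after rapalink-1, 1 kept the call under each alternative, psi1, and without untreated library 1 the count was 1. Against rapamycin, 14 of the 24 genes called lower after rapalink-1 kept the call, and tef103, tef5, SPAC29A4.02c, tif51, sce3, sum1, tif33, sup35, tif471 and tif225 lost it under at least 1 alternative. A permutation test of 2 against 2 libraries cannot go below p = 0.333, so none is given for single genes.

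**Figure D2:**
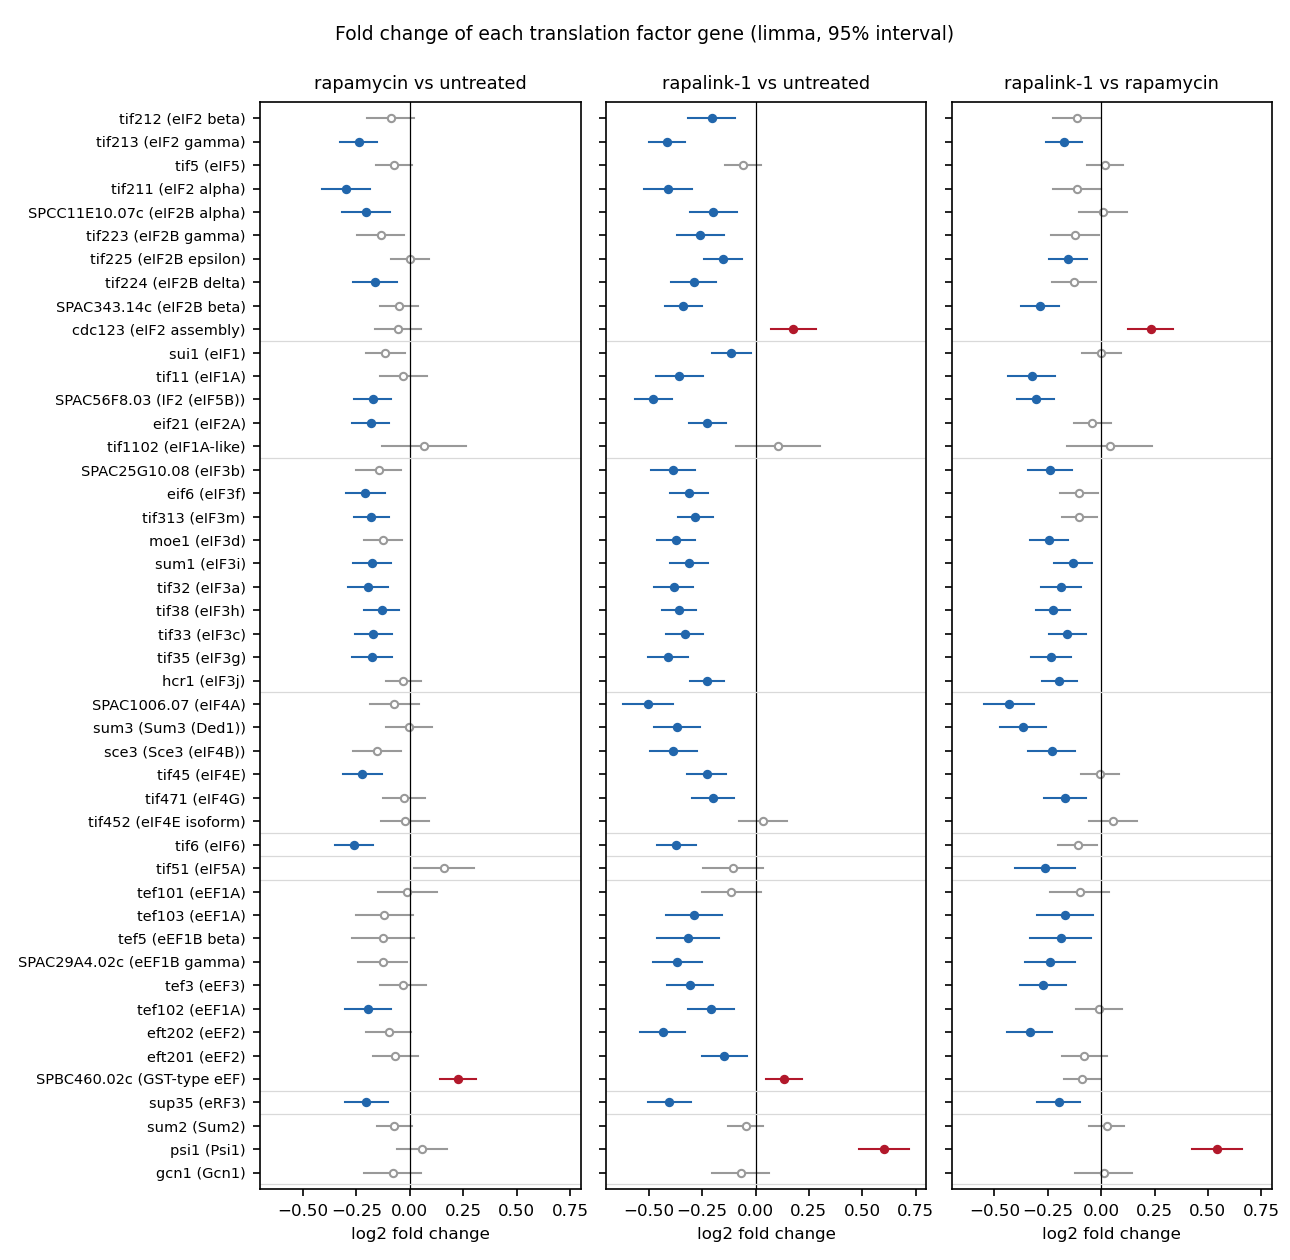
Log2 fold change of each of the 46 genes in the 3 comparisons, grouped by role, with lines for the 95% interval of limma. Blue points passed the test and were lower, red points passed it and were higher, and open grey points did not pass it. The middle panel (rapalink-1 against untreated) holds 36 blue and 3 red points, and the left panel (rapamycin against untreated) 17 blue and 1 red.

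Of the 3 genes for eIF2, the factor that carries initiator tRNA, tif211 and tif213 were among those that fell most after both drugs. The gene tif213 (eIF2 gamma, the GTP-binding subunit; II:2187455-2189134, + strand) had 407 and 399 FPKM in rapamycin-treated, 351 and 362 FPKM in rapalink-1-treated, and 481 and 473 FPKM in untreated cells. The 3 conditions did not overlap. Its log2 fold change was -0.24 ± 0.038 (SE) after rapamycin (adjusted p = 0.00531) and -0.41 ± 0.038 after rapalink-1 (adjusted p = 4.82e-05), and rapalink-1-treated cells were lower than rapamycin-treated cells by -0.17 ± 0.038 (adjusted p = 0.00705). The gene tif211 (eIF2 alpha, the subunit phosphorylated by stress kinases; I:3166394-3167699, + strand) had 338 and 308 FPKM with rapamycin, 294 and 302 FPKM with rapalink-1, and 406 and 391 FPKM untreated. Both drug conditions lay below the untreated libraries. The log2 fold changes of tif211 were -0.30 ± 0.049 (rapamycin, adjusted p = 0.00648) and -0.41 ± 0.049 (rapalink-1, adjusted p = 0.000246), and the 2 drugs differed by -0.11, with a 95% interval of -0.23 to -0.00 (adjusted p = 0.103).

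The third subunit gene, tif212 (eIF2 beta), moved less. It had 754 and 705 FPKM with rapamycin, 657 and 688 FPKM with rapalink-1, and 791 and 766 FPKM untreated. It passed the test after rapalink-1 only (log2 fold change -0.21 ± 0.048, adjusted p = 0.00804, lost under 3 of 17 alternatives), and its rapamycin value was -0.09 (95% interval -0.20 to 0.02). The FPKM of tif211 over that of tif212 was 0.449 and 0.438 with rapamycin, 0.448 and 0.439 with rapalink-1, and 0.513 and 0.511 untreated. Other gene models cover 44.7% of tif211 and 5.82% of tif212, so this ratio of FPKM may not be the ratio of their RNA. The ratio of tif213 to tif212 was 0.539 and 0.566 with rapamycin, 0.534 and 0.526 with rapalink-1, and 0.609 and 0.618 untreated. Both ratios were thus lower in all 4 drug-treated libraries than in the untreated ones.

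All 5 genes for eIF2B, the exchange factor that recycles eIF2, fell after rapalink-1 (all genes: 22.5%). The log2 fold changes were -0.34 for SPAC343.14c (beta), -0.29 for tif224 (delta), -0.26 for tif223 (gamma), -0.20 for SPCC11E10.07c (alpha) and -0.15 for tif225 (epsilon). The calls of SPCC11E10.07c and tif225 were lost under 3 and 1 of 17 alternatives. After rapamycin only the alpha and delta genes passed (-0.21 and -0.16, adjusted p = 0.0227 and 0.0422), where 7.28% of all genes were lower. Both calls were lost under some alternatives, 5 and 6 of 17. The alpha gene SPCC11E10.07c had 161 and 151 FPKM with rapamycin, 162 and 152 FPKM with rapalink-1, and 184 and 178 FPKM untreated, so the 2 drugs overlapped. The beta gene SPAC343.14c separated them: it had 105 and 104 FPKM with rapamycin, 86.9 and 83.7 FPKM with rapalink-1, and 108 and 109 FPKM untreated, and rapalink-1-treated cells were lower than rapamycin-treated cells by -0.29 ± 0.039 (adjusted p = 0.000624). The gene tif5 for eIF5, which triggers GTP hydrolysis by eIF2, passed in no comparison, with 386 and 387 FPKM (rapamycin), 398 and 384 FPKM (rapalink-1) and 412 and 405 FPKM (untreated).

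One gene of this group went the other way. The gene cdc123, for the assembly chaperone that joins eIF2 gamma to the other subunits, had 46.4 and 46.5 FPKM in rapalink-1-treated, 40.2 and 38.8 FPKM in rapamycin-treated, and 40.6 and 41.7 FPKM in untreated cells. It rose after rapalink-1 against untreated cells (log2 fold change 0.18 ± 0.047, adjusted p = 0.0138, lost under 2 of 17 alternatives) and against rapamycin (0.23 ± 0.047, adjusted p = 0.00497).

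Among the genes for start codon recognition, those for eIF5B and eIF1A fell most after rapalink-1. The gene SPAC56F8.03, described as translation initiation factor IF2 and so the eIF5B gene that acts in joining the large subunit, had 158 and 161 FPKM with rapamycin, 126 and 132 FPKM with rapalink-1, and 180 and 181 FPKM untreated. No 2 conditions overlapped. Its log2 fold change was -0.17 ± 0.038 after rapamycin (adjusted p = 0.0175), -0.48 ± 0.038 after rapalink-1 (adjusted p = 2.16e-05) and -0.31 ± 0.038 between the drugs (adjusted p = 0.000402). The eIF1A gene tif11, whose product keeps the scanning complex open, had 967 and 940 FPKM with rapamycin, 738 and 783 FPKM with rapalink-1, and 1004 and 952 FPKM untreated. Here rapamycin overlapped the untreated libraries (log2 fold change -0.03, 95% interval -0.14 to 0.08), and rapalink-1 lay below both (-0.36 ± 0.048 against untreated, adjusted p = 0.00049; -0.33 ± 0.048 against rapamycin, adjusted p = 0.00106).

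The eIF1 gene sui1, whose product guards start codon choice, had a smaller fold change than tif11 after rapalink-1. It had 971 and 952 FPKM with rapamycin, 960 and 963 FPKM with rapalink-1, and 1044 and 1045 FPKM untreated. Its log2 fold change after rapalink-1 was -0.11 ± 0.040 (adjusted p = 0.0448, lost under 8 of the 17 alternatives) and after rapamycin -0.12 ± 0.040 (adjusted p = 0.0784). The eIF2A gene eif21 fell by a like amount with both drugs, with 155 and 151 FPKM (rapamycin), 146.09 and 151 FPKM (rapalink-1) and 177 and 172 FPKM (untreated). The low eIF1A-like gene tif1102 passed in no comparison, and its rapalink-1 libraries were 37.3 and 30.2 FPKM.

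The eIF3 genes were lower throughout. All 10 fell after rapalink-1 (all genes: 22.5%), and 7 of 10 fell after rapamycin (all genes: 7.28%). Between the drugs, 8 of 10 were lower in rapalink-1-treated cells (all genes: 17.4%). In the median the log2 fold change was -0.34 (rapalink-1) and -0.17 (rapamycin) against untreated cells, and the difference in summed FPKM from untreated cells was -11.0% with rapamycin and -21.4% with rapalink-1. Both rapamycin libraries lay between the rapalink-1 and the untreated libraries for each of the 10 genes. The plot of percent of the untreated mean shows this order. The share of all genes tested with the full order was not counted. With no overlap, rapamycin stood under untreated in 32.8% of all genes tested, and rapalink-1 under rapamycin in 35.4%. In percent of the untreated mean, the 10 genes ranged in the rapalink-1 libraries from 72.5% to 85.1% and from 77.3% to 85.0%, and in the rapamycin libraries from 87.7% to 96.5% and from 84.8% to 98.8%.

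**Figure D3:**
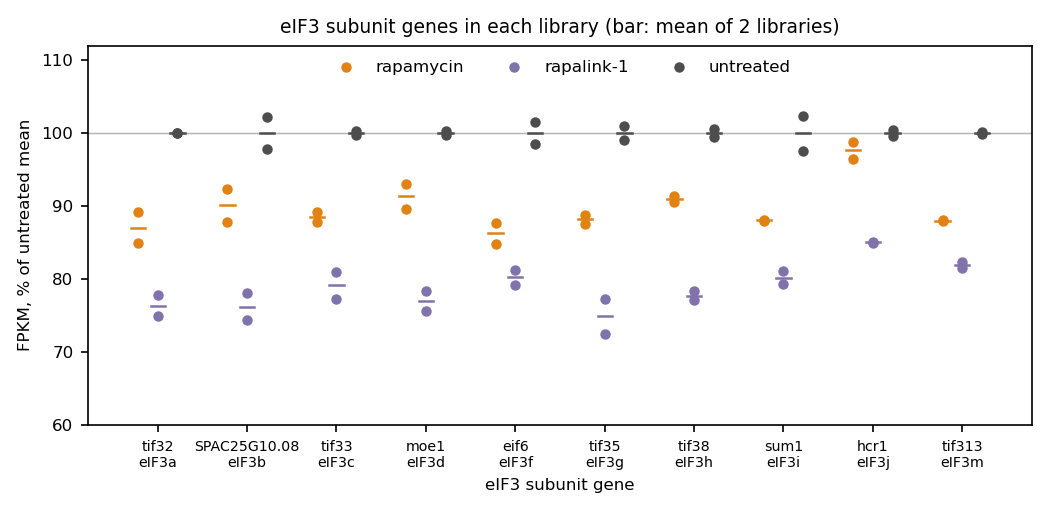
FPKM of the 10 eIF3 subunit genes as a percent of each gene's untreated mean, with 1 point per library and a bar at the mean of 2 libraries (rapamycin left, rapalink-1 middle, untreated right for each gene). The rapalink-1 points lie between 72.5% and 85.1% of the untreated mean, below the rapamycin points of the same gene.

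The largest fall among them was in tif35 (eIF3g, an RNA-binding subunit), with 265 and 262 FPKM with rapamycin, 217 and 231 FPKM with rapalink-1, and 302 and 296 FPKM untreated. Its log2 fold changes were -0.18 ± 0.041 (rapamycin, adjusted p = 0.022), -0.41 ± 0.041 (rapalink-1, adjusted p = 9.41e-05) and -0.23 ± 0.041 (rapalink-1 against rapamycin, adjusted p = 0.00264). The largest scaffold subunits, tif32 (eIF3a), SPAC25G10.08 (eIF3b) and tif33 (eIF3c), fell after rapalink-1 by -0.38, -0.39 and -0.33. The gene with the symbol eif6 encodes eIF3f, and it fell most among the eIF3 genes after rapamycin, with 474 and 458 FPKM (rapamycin), 428 and 438 FPKM (rapalink-1) and 548 and 532 FPKM (untreated). The smallest rapalink-1 fall was in hcr1 (eIF3j, the loosely bound subunit), with 134.3 and 134.2 FPKM with rapalink-1, 152 and 156 FPKM with rapamycin, and 157 and 159 FPKM untreated. The 3 genes that did not pass after rapamycin were hcr1, moe1 (eIF3d) and SPAC25G10.08, at adjusted p = 0.599, 0.0575 and 0.0574.

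Of the 6 cap-binding and helicase genes, 5 fell after rapalink-1 (all genes: 22.5%) and 1 after rapamycin (all genes: 7.28%). When the drugs were compared, 4 were lower with rapalink-1 (all genes: 17.4%). The difference in summed FPKM of the 6 genes of rapalink-1 from rapamycin was -20.7%, beside -11.7% for eIF3 and -10.5% for the elongation factors. Such a sum weighs the most abundant gene most, here the eIF4A gene. The median log2 fold changes per gene in this comparison were close together, at -0.20, -0.19 and -0.17 in the same order. The eIF4A gene SPAC1006.07 (I:5085486-5087031, + strand), for the ATP-driven helicase that clears mRNA leaders, had 2378 and 2324 FPKM with rapamycin, 1699 and 1782 FPKM with rapalink-1, and 2511 and 2447 FPKM untreated. Rapalink-1 lay well below the other 4 libraries. Its log2 fold change was the most negative of all 46 genes, at -0.51 ± 0.051 (adjusted p = 9.82e-05, 0.705 times the untreated level) after rapalink-1 and -0.43 ± 0.051 (adjusted p = 0.00032) against rapamycin, while the rapamycin value of -0.07 had a 95% interval of -0.19 to 0.04.

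Sum3, the fission yeast form of the DEAD-box helicase Ded1, gave a like picture. Its gene sum3 had 1035 and 1004 FPKM with rapamycin, 765 and 817 FPKM with rapalink-1, and 1033 and 1016 FPKM untreated, and its log2 fold change was -0.37 ± 0.047 for rapalink-1 against rapamycin (adjusted p = 0.000495) and -0.00 for rapamycin against untreated (95% interval -0.11 to 0.10). The gene sce3, for an initiation factor of the eIF4B kind that assists eIF4A, had 699 and 640 FPKM with rapamycin, 569 and 568 FPKM with rapalink-1, and 755 and 738 FPKM untreated, and it fell after rapalink-1 (-0.39 ± 0.048, adjusted p = 0.000323). The gene tif471 for eIF4G, the scaffold that holds the cap complex together, had 233 and 226 FPKM with rapamycin, 197 and 211 FPKM with rapalink-1, and 235 and 234 FPKM untreated (rapalink-1 against untreated -0.20 ± 0.043, adjusted p = 0.00577).

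For the cap-binding protein eIF4E itself, the drugs gave nearly the same level. Its main gene tif45 had 238 and 233 FPKM with rapamycin, 236 and 232 FPKM with rapalink-1, and 283 and 268 FPKM untreated. The drug-treated libraries overlapped each other and all lay below the untreated ones, with log2 fold changes of -0.22 ± 0.040 (rapamycin, adjusted p = 0.00823) and -0.23 ± 0.040 (rapalink-1, adjusted p = 0.00175), and a difference between the drugs of -0.01 (95% interval -0.10 to 0.08). The second eIF4E gene, tif452, described as a stress response isoform, passed in no comparison, with 155 and 142 FPKM (rapamycin), 157 and 152 FPKM (rapalink-1) and 153 and 149 FPKM (untreated). The level of tif452 over that of tif45 was 0.653 and 0.609 with rapamycin, 0.664 and 0.654 with rapalink-1, and 0.543 and 0.555 untreated.

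Tif6, the eIF6 protein that keeps ribosomal subunits apart and also acts in making the large subunit, is encoded by tif6. This gene had 388.3 and 387.7 FPKM with rapamycin, 363 and 356 FPKM with rapalink-1, and 477 and 455 FPKM untreated, and it fell after both drugs (log2 fold changes -0.26 ± 0.039, adjusted p = 0.00486, and -0.37 ± 0.039, adjusted p = 0.000127). The 2 drugs differed by -0.11 (95% interval -0.20 to -0.02, adjusted p = 0.0556). The gene tif51 for eIF5A, the hypusine-bearing factor that helps ribosomes past difficult peptide bonds, had 1578 and 1537 FPKM with rapamycin, 1352 and 1244 FPKM with rapalink-1, and 1465 and 1338 FPKM untreated. Both rapamycin libraries lay above both untreated ones without passing the test (0.16, 95% interval 0.02 to 0.30, adjusted p = 0.106), and the gene was lower with rapalink-1 than with rapamycin (-0.26 ± 0.061, adjusted p = 0.0101). Leaving out single libraries or changing the processing ended this call under 2 of 17 alternatives.

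Of the 9 elongation factor genes, 7 fell and 1 rose after rapalink-1 (all genes: 22.5% and 24.8%). After rapamycin 1 fell and 1 rose (all genes: 7.28% and 10.4%). Several of these genes are near-identical copies, which limits how far reads can be assigned to each. The 3 eEF1A genes share 98.6% to 98.9% of their coding bases in pairs, and the 2 eEF2 genes 99.6%. Of all windows of 150 bases, 29.2% in tef101, 31.2% in tef103, 48.5% in tef102, 66.1% in eft201 and 65.7% in eft202 occur elsewhere in the genome, and none in tef3, tef5 or SPAC29A4.02c. The ninth gene, SPBC460.02c, was not found in the assembly and its windows were not searched. The stretches below, from RefSeq's ASM294v3 assembly, show where the copies can be told apart, with capitals at the positions that differ between copies.
tef101: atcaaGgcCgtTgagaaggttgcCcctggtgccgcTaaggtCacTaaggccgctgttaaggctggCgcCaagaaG
tef102: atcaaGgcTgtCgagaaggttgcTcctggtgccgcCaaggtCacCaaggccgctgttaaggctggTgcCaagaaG
tef103: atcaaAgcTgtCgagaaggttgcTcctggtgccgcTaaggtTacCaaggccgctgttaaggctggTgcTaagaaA
eft201: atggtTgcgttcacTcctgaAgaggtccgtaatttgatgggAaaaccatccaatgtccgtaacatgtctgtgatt
eft202: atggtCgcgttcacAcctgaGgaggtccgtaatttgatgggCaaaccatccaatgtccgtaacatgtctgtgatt
The eEF1A lines are coding bases 1306 to 1380, counted from the start codon, at III:268100-268174 (- strand), I:4096507-4096581 (+ strand) and II:626109-626183 (- strand) in the order shown, and hold 10 of the 25 positions at which the 3 copies differ. The eEF2 lines are coding bases 1 to 75, at I:2910155-2910229 (- strand) and III:537326-537400 (+ strand), and hold 4 of 11.

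Of the eEF2 copies, eft202 had the larger fall after rapalink-1; the difference between the copies was not tested. The translocase gene eft202 had 765 and 747 FPKM with rapamycin, 576 and 622 FPKM with rapalink-1, and 814 and 811 FPKM untreated. The gene eft201 had 520 and 503 FPKM with rapamycin, 465 and 504 FPKM with rapalink-1, and 535 and 541 FPKM untreated. The log2 fold change after rapalink-1 was -0.44 ± 0.047 for eft202 (adjusted p = 0.000135) and -0.15 ± 0.047 for eft201 (adjusted p = 0.0316, lost under 5 of the 17 alternatives), and neither passed after rapamycin. The level of eft202 over that of eft201 was 1.47 and 1.48 with rapamycin, 1.24 and 1.23 with rapalink-1, and 1.52 and 1.50 untreated, so the ratio was lower in both rapalink-1 libraries than in any other.

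The eEF1A copies encode the factor that brings aminoacyl-tRNA to the ribosome. Other gene models cover 3.31% of tef101, 20.9% of tef103 and 60.6% of tef102. The order of the copies by FPKM may therefore not be the order of their RNA. By FPKM tef101 was highest, with 4926 and 4722 (rapamycin), 4465 and 4524 (rapalink-1) and 4883 and 4873 (untreated). The gene tef101 passed in no comparison. Its fold changes of -0.01 (rapamycin) and -0.11 (rapalink-1) changed sign under quantile normalisation, to 0.10 and 0.11. The gene tef103 had 4268 and 4157 FPKM with rapamycin, 3733 and 3751 FPKM with rapalink-1, and 4653 and 4525 FPKM untreated, and it fell after rapalink-1 (-0.29 ± 0.058, adjusted p = 0.00381). This call was lost with quantile normalisation (-0.056, adjusted p = 0.143) and without untreated library 1 (-0.27, adjusted p = 0.0698). The gene tef102 had 1293 and 1223 FPKM with rapamycin, 1228 and 1266 FPKM with rapalink-1, and 1445 and 1446 FPKM untreated, and it fell with both drugs (-0.20 ± 0.047, adjusted p = 0.0246, and -0.21 ± 0.047, adjusted p = 0.00714). Its calls were lost under 5 (rapamycin) and 2 (rapalink-1) of 17 alternatives. Summed over the 3 copies, the difference from untreated cells was -5.66% with rapamycin and -13.1% with rapalink-1.

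**Figure D4:**
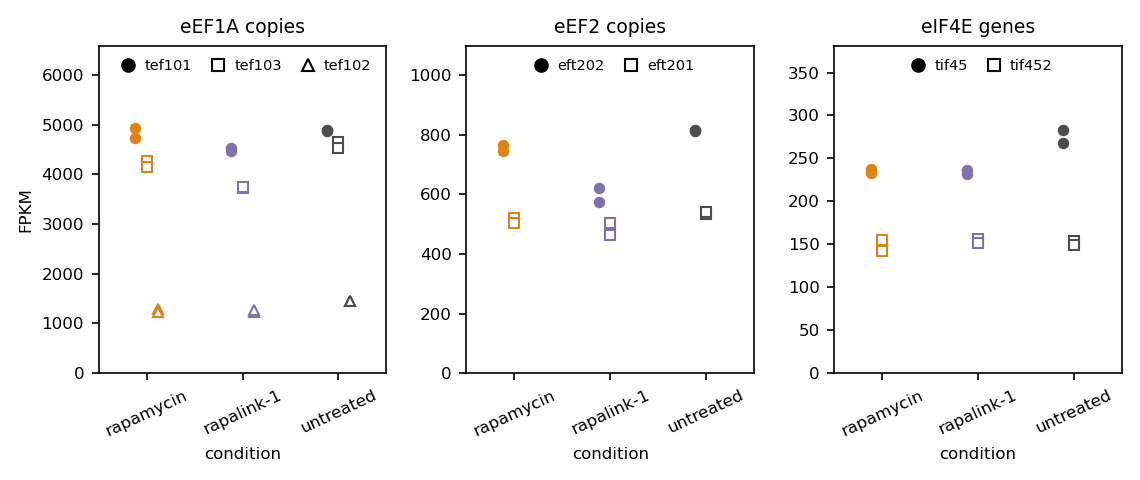
FPKM of the eEF1A, eEF2 and eIF4E genes in each library, from 0, with 1 symbol per gene and 2 points per condition (rapamycin left, rapalink-1 middle, untreated right). In the eEF2 panel, eft202 is at 576 and 622 FPKM with rapalink-1 and at 814 and 811 FPKM untreated, while eft201 changes less.

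The other elongation genes fell after rapalink-1 and did not pass after rapamycin, apart from 1 that rose. The genes tef5 (eEF1B beta, which recycles eEF1A) and SPAC29A4.02c (eEF1B gamma) had log2 fold changes of -0.32 and -0.37 after rapalink-1. With quantile normalisation the value of tef5 was -0.029 (adjusted p = 0.386) and its call was lost. The gene tef3, for the fungal factor eEF3 that helps release the spent tRNA, had 1524 and 1458 FPKM with rapamycin, 1219 and 1244 FPKM with rapalink-1, and 1555 and 1502 FPKM untreated, and it was lower with rapalink-1 than untreated (-0.31 ± 0.047, adjusted p = 0.000994) and than with rapamycin (-0.27 ± 0.047, adjusted p = 0.00237). The gene SPBC460.02c, described as an elongation factor with a glutathione S-transferase, rose: it had 565 and 562 FPKM with rapamycin, 529 and 528 FPKM with rapalink-1, and 489 and 478 FPKM untreated. Its log2 fold changes were 0.22 ± 0.037 after rapamycin (adjusted p = 0.00618) and 0.13 ± 0.037 after rapalink-1 (adjusted p = 0.0167, lost under 4 of 17 alternatives). It lies on the separate contig AB325691 in the files' annotation.

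The eRF3 gene sup35 (III:1535396-1538011, + strand), for the GTPase that works with eRF1 at stop codons, fell after both drugs. It had 276 and 259 FPKM with rapamycin, 226 and 239 FPKM with rapalink-1, and 307 and 311 FPKM untreated, with no overlap between conditions. The log2 fold changes were -0.20 ± 0.045 (rapamycin, adjusted p = 0.0172), -0.40 ± 0.045 (rapalink-1, adjusted p = 0.000157) and -0.20 ± 0.045 (rapalink-1 against rapamycin, adjusted p = 0.00824). Its partner could not be measured. The eRF1 gene sup45 had 1 read in 1 rapamycin and 1 untreated library and none elsewhere, and the second eIF5A gene tif512 had no read in any library, so both are listed at about 0 and have no fold change.

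For both genes nearly the whole model is shared with other models. Other models cover 97.4% of sup45 (its antisense RNA, vrg4 and aro1) and 100% of tif512 (spc24). Of 654 protein-coding genes covered over at least 90% of their length, 474 had a mean under 1 read, against 20 of 3017 covered over under 10%. The zeros in sup45 and tif512 are therefore no measure of their RNA. Among the tested genes, the largest covered shares of the span from start to end were in tef102 (60.6%), sum1 (58.2%), tif211 (44.7%), tif1102 (32.9%), hcr1 (29.8%) and tif35 (28.1%). If reads in the covered stretches were not counted, their FPKM understate their level per base. Divided by the uncovered share of its span, the untreated mean of tif211 would be 721 FPKM in place of 399. The loss of reads was not measured for single genes. Among the 25 tested genes with under 1% of the model shared and no copied window, 10 fell and 0 rose after rapamycin. The shares of all genes were 7.28% and 10.4%. After rapalink-1 21 fell and 1 rose (all genes: 22.5% and 24.8%). For rapalink-1 against rapamycin 14 were lower and 1 higher (all genes: 17.4% and 19.7%).

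Of the remaining genes, psi1 stood apart. It encodes a DNAJ-domain co-chaperone, Psi1, annotated to translation initiation, and lies at III:2193527-2195545 on the - strand. It had 164 and 154 FPKM with rapamycin, 232 and 233 FPKM with rapalink-1, and 147 and 160 FPKM untreated. The rapalink-1 libraries lay above the other 4, and the log2 fold change was 0.60 ± 0.051 against untreated cells (adjusted p = 3.37e-05, 1.52 times the untreated level) and 0.54 ± 0.051 against rapamycin (adjusted p = 8.98e-05), while rapamycin against untreated gave 0.06 (95% interval -0.06 to 0.17). The genes sum2, described as an initiation inhibitor, and gcn1 passed in no comparison. For gcn1 the values were 30.97 and 28.4 FPKM (rapamycin), 29.3 and 30.5 FPKM (rapalink-1) and 31.03 and 32.1 FPKM (untreated).

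Promoters of ribosomal protein genes in fission yeast are known for the HomolD box, which stands in for a TATA box, and the HomolE box. The sequences from 250 bases before to 50 bases after the annotated gene start were searched on both strands in RefSeq's ASM294v3 assembly, in which 47 of the 48 genes were found. HomolD (CAGTCACA or TGTGACTG) was in 5 of 47 promoters (10.6%), against 2.68% of 5112 protein-coding genes and 63.8% of 138 cytosolic ribosomal protein genes. HomolE (the box in capitals in the eft202 and tif512 lines below, or its reverse complement) was in 2 of 47 (4.26%), against 1.25% and 29.7%. A GATA site (GATAAG or CTTATC) was in 6.38% against 11.6% of all genes, and TATAAA or TTTATA in 51.1% against 48.1%. The stretches that hold the ribosomal protein boxes are shown with the box in capitals, since 6 of the 7 are in front of the eEF1A genes, tef3, eft202 and the eIF4A gene described above.
tef101: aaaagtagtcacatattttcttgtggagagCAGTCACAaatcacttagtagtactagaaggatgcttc
tef102: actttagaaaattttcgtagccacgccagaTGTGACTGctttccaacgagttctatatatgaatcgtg
tef103: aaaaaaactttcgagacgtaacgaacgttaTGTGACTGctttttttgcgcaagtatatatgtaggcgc
tef3: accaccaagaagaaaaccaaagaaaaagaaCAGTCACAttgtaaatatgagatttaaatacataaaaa
SPAC1006.07: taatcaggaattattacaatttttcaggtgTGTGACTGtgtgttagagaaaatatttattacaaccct
eft202: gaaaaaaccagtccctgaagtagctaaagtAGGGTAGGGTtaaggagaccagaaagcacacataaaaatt
tif512: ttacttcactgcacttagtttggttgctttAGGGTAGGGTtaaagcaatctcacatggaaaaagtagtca
In this assembly they lie at III:269523-269590, I:4095046-4095113, II:627544-627611, III:1685476-1685543, I:5085446-5085513, III:537200-537269 and II:2759292-2759361 in the order shown, on the - strand for tef101, tef103 and tif512 and on the + strand for the others. The 5 genes with HomolD had log2 fold changes after rapalink-1 of -0.11 (tef101, not called), -0.21 (tef102), -0.29 (tef103), -0.31 (tef3) and -0.51 (SPAC1006.07). The eft201 promoter, next to a copy of the same coding sequence, held neither box in this window.

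Other genes of the translation system give the frame for these values. Of 113 cytosolic ribosomal protein genes tested, 22 fell after rapamycin, 100 after rapalink-1 and 34 for rapalink-1 against rapamycin, and the median log2 fold change was -0.17, -0.30 and -0.13 in that order. The translation factor medians of -0.12, -0.29 and -0.14 were of similar size. Of 51 ribosome biogenesis genes tested, 21 rose after rapamycin (median 0.22), 16 fell and 1 rose after rapalink-1 (median -0.13), and 42 were lower and 1 was higher in rapalink-1-treated than in rapamycin-treated cells (median -0.39).

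Upstream of eIF2, the 7 genes listed for eIF2 alpha kinases and the amino acid starvation response were mixed. After rapamycin 3 were higher and 1 lower, and after rapalink-1 2 were higher and 3 lower. Over all genes tested, 10.4% were higher and 7.28% lower after rapamycin, and 24.8% higher and 22.5% lower after rapalink-1. The kinase gene hri1 had 32.9 and 31.7 FPKM with rapamycin, 36.9 and 39.4 FPKM with rapalink-1, and 24.7 and 26.7 FPKM untreated, and rose after both (0.32, adjusted p = 0.00993, and 0.56, adjusted p = 0.000143). The kinase gene gcn2 rose after rapamycin only, just past the threshold (0.22, adjusted p = 0.0489). SPCC1393.08 (fil1) rose after rapamycin (0.43, adjusted p = 0.00283) and after rapalink-1 (0.42, adjusted p = 0.000483). After rapalink-1 cpc2 (-0.40, adjusted p = 0.000411), yih1 (-0.38, adjusted p = 0.0201) and gcn20 (-0.13, adjusted p = 0.0375) fell. Of these, gcn20 alone also fell after rapamycin (-0.16, adjusted p = 0.0435). Of the 5 genes for ribosome rescue and recycling, 3 fell and 1 rose after rapalink-1, and 2 fell after rapamycin. Those that fell after rapalink-1 were rli1, whose product splits ribosomes after termination (-0.36, adjusted p = 0.000209), dom34, for a factor that rescues stalled ribosomes (-0.26, adjusted p = 0.00185), and SPBC16C6.05 (-0.13, adjusted p = 0.0174). After rapamycin dom34 (-0.20, adjusted p = 0.0207) and tma20, for a recycling factor (-0.20, adjusted p = 0.00714), fell. After rapalink-1 tma20 rose (0.13, adjusted p = 0.0128), with 150 and 151 FPKM with rapamycin, 190.2 and 189.7 FPKM with rapalink-1, and 173 and 174 FPKM untreated for tma20.

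Enzymes that modify the factors were lower in part. Of 7 tested, 3 fell after rapalink-1 (all genes: 22.5%), and the log2 fold changes after rapamycin ran from -0.18 to 0.12. The largest fall was in mmd1, the deoxyhypusine hydroxylase that finishes the modification of eIF5A, with 131 and 126 FPKM with rapamycin, 88.5 and 84.0 FPKM with rapalink-1, and 128 and 110 FPKM untreated (-0.45, adjusted p = 0.000837). The poly(A)-binding protein gene pabp fell after rapalink-1 (-0.22, adjusted p = 0.00407). Of 5 genes for the S6 kinases and ribosomal protein S6, the 2 S6 genes rps601 and rps602 fell after rapalink-1 (-0.33 and -0.31), and psk1, sck1 and sck2, for the kinases, did not pass against untreated cells.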

How the data were processed

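Per the labels, polyA-captured RNA was sequenced as paired-end reads, and the submitters' processing notes name HISAT2 2.0.5, StringTie 1.3.3b, featureCounts 1.5.0-p3 and DESeq2. The strand setting and genome build are not given in the sources used here, and 99.5% of the gene models found in RefSeq's ASM294v3 shared a start or an end with it. The authors deposited FPKM of 7268 genes in 6 libraries, scaled to gene length and library size. Tables of the authors' comparisons hold read counts, FPKM, log2 fold changes and p-values for part of the genes; the deposited counts served only to check reads recovered from FPKM, which were whole for 100% of values within 0.001 and equalled every listed count. The authors' fold changes and p-values were not used.

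FPKM were divided by median-of-ratios factors over the genes tested, and log2(FPKM + 1) was tested with limma 3.58.1 in R 4.3.3 (all 6 libraries in 1 fit, intensity trend, no block). Fold changes are on this scale. P-values were adjusted by Benjamini-Hochberg over the 4847 genes with a mean of at least 1 FPKM, with a threshold of 0.05. Alternatives used edgeR 4.0.16 and DESeq2 1.42.0 on recovered reads, a pseudocount of 0.1, a minimum of 10 FPKM or none, no further scaling, quantile normalisation, no trend, a replicate block, 2 conditions at a time, protein-coding genes only, and 1 library left out. The test was also run on simulated reads with known fold changes and the same spread for all genes. That run does not show how often calls are false in these data. Motifs and copies were searched with Python 3.11.15.

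Every member is accounted for by role group. Values per library are given for the 6 members with the largest rise and fall past the threshold in each comparison, for fixed core factors, and for members that passed against the direction of most; others were named after their values were seen. Members and lists were chosen with earlier results of these data known. One listed gene, tma64, was not analysed here.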

Additional observations from a re-analysis of the deposited data

How the results depend on the processing

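Under edgeR and DESeq2 on recovered reads, a pseudocount of 0.1, a minimum of 10 FPKM, FPKM without further scaling, protein-coding genes only and fits of 2 conditions, the counts of members lower stayed within 1.5 times of 17 (rapamycin), 36 (rapalink-1) and 24 (rapalink-1 against rapamycin). The count after rapamycin was 3 without a filter on low values and 5 without the intensity trend, and the count of members higher after rapamycin was 3 with quantile normalisation and 2 with DESeq2, in place of 1. Quantile normalisation gave member medians of -0.080 (rapamycin), -0.33 (rapalink-1) and -0.23 (rapalink-1 against rapamycin). It turned tef101 to 0.10 (rapamycin, adjusted p = 0.0199) and 0.11 (rapalink-1, adjusted p = 0.00399), and sui1 to -0.091 (rapalink-1 against rapamycin, adjusted p = 0.0455). The cause was not tested. Over all 2346 single values under alternatives, 42 others changed sign without a call in either setting.

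With 1 library left out, members lower ranged from 3 to 17 (rapamycin), 29 to 37 (rapalink-1) and 16 to 26 (rapalink-1 against rapamycin), members higher after rapalink-1 from 1 to 4, and the medians from -0.14 to -0.079, -0.31 to -0.28 and -0.18 to -0.12. A condition left with 1 library is assumed to vary like the others. The median over the 25 members with unshared models, an alternative chosen after seeing the data, was -0.13, -0.31 and -0.16.

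Same-numbered libraries did not deviate together (r = -0.01, 0.00 and 0.04 across genes), so the numbers were not taken as pairs. With the replicate block, 17, 35 and 24 members were lower.

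Shared gene models and near-identical copies limit sup45, tif512, the eEF1A and the eEF2 genes, whatever the depth.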
